A study of Mus musculus with 4 samples.

Results

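A set of 10 genes encoding serotonin receptors was followed through single-nucleus RNA sequencing of the adult mouse hippocampus. They are Htr1a, Htr1b, Htr1f, Htr2a, Htr2c, Htr3a, Htr4, Htr5a, Htr6 and Htr7. All 10 were found by Ensembl ID among the 55422 gene IDs of the files, and unique molecular identifiers (UMIs) were summed per library and class of nuclei over barcodes with at least 5000 UMIs. Control mice were Kat6a-f/f, carrying Kat6a alleles flanked by loxP sites, and Kat6a-cKO mice carried the same alleles and NEX-cre. NEX-cre is a Cre recombinase expressed from the Neurod6 locus of forebrain excitatory neurons, a driver that is not expected to act in inhibitory neurons or most glia. There were 2 libraries per genotype; the labels give no age beyond adult, no sex and no treatment, and do not say whether a library was 1 animal or a pool, so the p-values measure the spread between these libraries.

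Serotonin reaches the hippocampus through axons of the raphe nuclei and acts there on receptors of 7 families. The 5-HT1 and 5-HT5 receptors couple to inhibitory Gi/o proteins, the 5-HT2 receptors to Gq and phospholipase C, and the 5-HT4, 5-HT6 and 5-HT7 receptors to Gs and adenylyl cyclase. The 5-HT3 receptor is a cation channel of certain interneurons. In the hippocampus, the 5-HT1A receptor is known for opening GIRK potassium channels in pyramidal neurons, and the 5-HT4 receptor for raising the excitability of pyramidal and granule cells.

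The analysis held 7990 and 7718 nuclei of Control and 8144 and 7613 of Kat6a-cKO, with median UMI counts per nucleus between 13706 and 14381. The nuclei formed 39 clusters, and 13 classes of 1 or more clusters could be named from marker genes; a class is called "-like" because its name was rebuilt from markers. Libraries shared 14 to 18 barcodes in any pair. Droplets without a nucleus held a median of 513 and 548 UMIs in Control against 413 and 389 in Kat6a-cKO, so empty droplets held less RNA in both Kat6a-cKO libraries. Kat6a itself had 61.8 and 69.0 counts per 1000000 UMIs (CPM) in CA1-like nuclei of Control and 60.6 and 63.8 in Kat6a-cKO; reads outside the deleted part do not check the label. The cre entry of the files had 0 UMIs in both Control libraries and 158 and 150 in Kat6a-cKO, of which CA1-like nuclei held 38 and 52, dentate granule-like nuclei 5 and 6, and inhibitory-like nuclei 0 and 2.

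The 5 more abundant receptor genes each had their own order of cell classes. Levels below are CPM of the summed UMIs of a class, given as the range over the 4 libraries of both genotypes, as a description with no test between classes. Nuclear counts can include unspliced RNA and favour long genes, so only values of the same gene are compared.

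Htr4, on chromosome 18 (62324204 to 62496577, plus strand, GRCm38), was highest in the dentate granule-like class. There it ranged from 348 to 367 CPM, and that class held 54.2% of all Htr4 UMIs. CA2-like nuclei came next with 157 to 207 CPM, a range that overlapped with immature dentate-like nuclei (99.8 to 163 CPM), and these in turn overlapped with CA1-like nuclei (114 to 140 CPM). At a minimum of 1000 UMIs, immature dentate-like nuclei had 63.1 to 85.8 CPM, below CA1-like (114 to 149 CPM) and CA2-like nuclei (159 to 212 CPM), and neither overlap held. The granule-like class therefore stood above every other named class in every library. When each nucleus was thinned to 5000 UMIs, 77.5% ± 0.68 (SD, n = 4 libraries) of granule-like nuclei had an Htr4 UMI, against 1.84% ± 1.76 of astrocyte-like and 3.68% ± 1.96 of oligodendrocyte-like nuclei, classes that served as background for free RNA. Within the CA3-like class, Htr4 divided the 2 clusters: cluster 14 (led by Armc4, Col6a1 and Calcrl; 541 nuclei) had 303 to 327 normalised CPM, and cluster 3 (led by Nectin3 and Trps1; 2226 nuclei) had 59.7 to 79.1.

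Htr1f, on chromosome 16 (64924729 to 65105854, minus strand), was highest among named classes in subicular and cortical excitatory-like nuclei, followed by CA1-like nuclei. The subicular and cortical excitatory-like class, a single cluster led by Dpp10 and Foxp2, had 292 to 430 CPM, CA1-like nuclei had 231 to 263 CPM, and mossy-like nuclei, the glutamatergic cells of the hilus, had 157 to 193 CPM. The first 2 ranges did not overlap with the next in order; those of mossy-like and Cajal-Retzius-like nuclei (129 to 197 CPM) did. CA3-like (134 to 161 CPM), CA2-like (127 to 162 CPM) and inhibitory-like nuclei (105 to 131 CPM, with 8.27% of all Htr1f UMIs) followed, each overlapping with the one before. Within the CA3-like class, cluster 3 had 151 to 181 normalised CPM of Htr1f and cluster 14 had 36.3 to 50.3. Dentate granule-like nuclei were low, with a mean of 12 CPM. Among unnamed clusters of excitatory neurons, cluster 19 (led by Fn1 and Rxfp1) had the highest mean, 516 CPM.

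Htr2c, on the X chromosome (146962513 to 147197277, plus strand), encodes the 5-HT2C receptor and also holds several microRNA genes within its span, which were not counted apart from it here. It was concentrated in a few clusters rather than in whole subfields. Cluster 10, an unnamed excitatory cluster led by Vwc2l, Sntb1 and Tshz2, held 26.8% of all Htr2c UMIs, and cluster 14 of the CA3-like class held 18.7%. Cluster 14 had 511 to 698 normalised CPM, whereas cluster 3 of the same class had 9.69 to 20.7. After thinning, 78.2% ± 2.42 of cluster 14 nuclei and 5.81% ± 2.06 of cluster 3 nuclei (SD, n = 4 libraries) had an Htr2c UMI. Among named classes, the subicular and cortical excitatory-like class was highest with 169 to 270 CPM; inhibitory-like nuclei (115 to 123 CPM) and CA3-like nuclei (93.2 to 145 CPM) overlapped. Among the 5 named inhibitory subtypes, Cck-like interneurons had a mean of 442 CPM and Sst-like ones of 6.8. Of 2453 inhibitory-like nuclei, these subtypes held 530 (Lamp5-like), 278 (Sst-like), 241 (Cck-like), 217 (Vip-like) and 202 (Pvalb-like). The rest stayed in unnamed subclusters and were not ranked. Transthyretin (Ttr), the defining RNA of the choroid plexus, an Htr2c-rich tissue, was at most 18.4 CPM in any library of cluster 14 and 14.1 in any of cluster 10.

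Htr7, on chromosome 19 (35958734 to 36057507, minus strand), marked CA2-like nuclei (131 to 171 CPM), mossy-like nuclei (75.4 to 181 CPM) and inhibitory-like nuclei (81.7 to 97.8 CPM), whose ranges overlapped from each to the next. CA3-like nuclei followed with 28.1 to 35.8 CPM as a class, below all 3. Their 2 clusters differed, with 68.0 to 85.45 normalised CPM in cluster 14 and 22.1 to 25.5 in cluster 3. CA1-like nuclei had a mean of 1.0 CPM, although they border CA2 and were rich in Htr4 and Htr1f. Among the named interneuron subtypes, Lamp5-like nuclei had the highest mean, 153 CPM, and Cck-like nuclei had 106.

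Htr2a, on chromosome 14 (74640840 to 74709494, plus strand), encodes the Gq-coupled 5-HT2A receptor on which classical psychedelics act. Inhibitory-like (50.6 to 69.1 CPM), CA1-like (44.6 to 77.4 CPM) and mossy-like nuclei (45.6 to 72.5 CPM) had the highest means over the libraries of both genotypes, with overlapping ranges. The ranges of Cajal-Retzius-like (21.9 to 82.3 CPM), CA2-like (24.7 to 64.8 CPM) and subicular and cortical excitatory-like nuclei (18.0 to 72.4 CPM) overlapped with them too. CA3-like nuclei (13.2 to 15.4 CPM) lay below all of these. Within Control, inhibitory-like nuclei (50.6 and 69.1 CPM) lay above CA1-like nuclei (44.6 and 47.1 CPM), and within Kat6a-cKO they lay below them (65.2 and 64.0 against 75.1 and 77.4 CPM). Dentate granule-like nuclei had a mean of 2.0 CPM. Among unnamed excitatory clusters, cluster 20 (led by Adam12 and Hrh3 among others) had 91.4 to 128 CPM. Cluster 34, 68 unnamed nuclei with Nr4a3, Hgf and Bdnf among the leading genes, had 72.6 and 157 CPM in Control against 286 and 82.2 in Kat6a-cKO. Clusters 20 and 34 were singled out after their values were seen.

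The other 5 receptors were scarce in nuclei. Htr5a was at most 7.6 CPM on average in a named class (inhibitory-like nuclei), Htr1a 5.5 and Htr1b 5.2 (both CA1-like). Htr3a, the channel subunit, gave 94.0% of its UMIs in inhibitory-like nuclei, at 1.71 to 2.51 CPM, and Cck-like interneurons had 9.0. Htr6 had its highest mean, 14.5 CPM, in astrocyte-like nuclei, but the 4 libraries ran from 0.0 to 20.9 there, so it could not be ranked above CA3-like nuclei (5.63 to 7.27 CPM); at a minimum of 1000 UMIs the means were 6.30 CPM in astrocyte-like and 6.50 in CA3-like nuclei. Htr1b and Htr3a each overlap an antisense gene, and the counting strand is not given in the sources used here, so their UMIs may include the partner's.

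**Figure D1:**
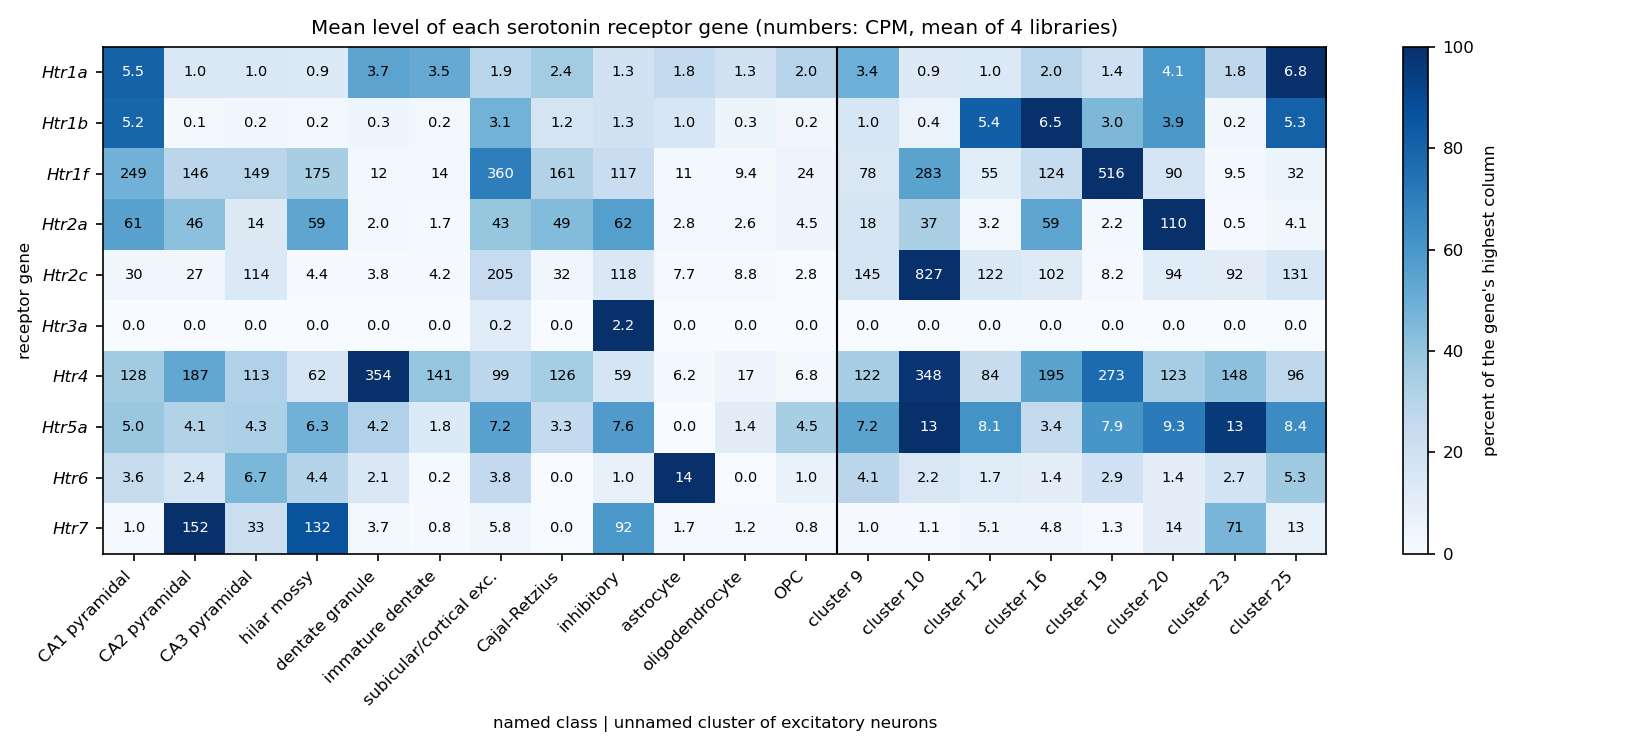
Mean level of the 10 receptor genes (rows) in 12 named classes (the ependymal-like class is left out) and 8 unnamed excitatory clusters (columns). Numbers are CPM, the mean of 4 libraries; colour is the percent of the row's highest column, so shades compare classes within a gene only. Htr4 is highest in dentate granule-like nuclei (354) and about as high in cluster 10 (348), Htr2c in cluster 10 (827) and Htr7 in CA2-like nuclei (152).

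Htr1a, Htr1b, Htr3a and Htr5a had higher CPM outside the nuclei than in them in all 4 libraries, and the other 6 receptors had lower CPM. In droplets without a nucleus (200 to 900 UMIs), Htr1a reached 21.2 and 17.7 CPM in Control against 17.4 and 16.4 in Kat6a-cKO, whereas it had 3.57, 3.28, 2.47 and 2.94 CPM over all nuclei of the same libraries. The ratio of empty droplets to nuclei was 5.99 ± 0.73 (SD, n = 4 libraries) for Htr1a and 3.92 ± 0.33 for Htr1b, followed by Htr3a (1.71 ± 0.40) and Htr5a (1.53 ± 0.25). It was lowest for Htr1f (0.233 ± 0.042) and Htr4 (0.293 ± 0.048), and lay between 0.421 and 0.632 for Htr2a, Htr2c, Htr6 and Htr7. Over the 12484 genes with at least 2 CPM in nuclei the median ratio was 1.05, and 51.6% of them had a mean ratio over 1. A ratio at least as high as that of Htr1a was found in 9.96% of these genes. The same shares were 37.5% for Htr5a and 98.3% for Htr1f. Htr1b and Htr3a were below the minimum of this comparison. Htr1a is a gene of 1 exon and 4.5 kb and Htr1b spans 5.5 kb, whereas Htr1f and Htr4 span 181.1 and 172.4 kb with introns. The ratio did not follow the span throughout: Htr6 (14.5 kb) had 0.630, Htr5a (12.9 kb) 1.53 and Htr2a (68.7 kb) 0.632. The level of Htr1a in CA1-like nuclei, 4.42 to 6.47 CPM, was above the 0.487 CPM estimated to come from free RNA in that class. Whether gene length or splicing sets the ratio was not tested.

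**Figure D2:**
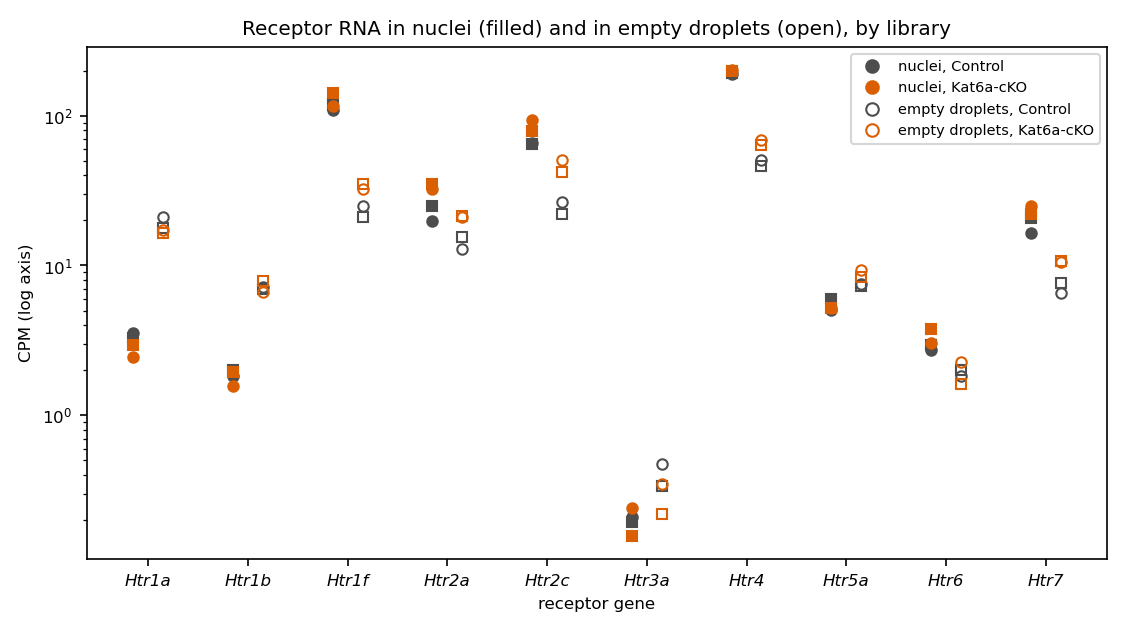
CPM of each receptor gene (log axis) over all nuclei (filled) and over empty droplets (open), 1 point per library, circles for replicate 1 and squares for replicate 2. Htr1a, Htr1b, Htr3a and Htr5a lie higher in empty droplets than in nuclei in all 4 libraries, and the other 6 lie lower in all 4. Of 12484 genes with at least 2 CPM in nuclei, 51.6% had a mean ratio of empty droplets to nuclei over 1.

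The number of receptor genes detected per nucleus, thinned to 5000 UMIs, differed between classes. Of dentate granule-like nuclei, 69.2% to 71.8% per library had exactly 1 receptor gene detected and at most 0.77% had 3 or more. Of CA2-like nuclei, 14.8% to 28.6% had 3 or more. In CA1-like nuclei that share was 9.41% and 9.85% in Control against 13.6% and 13.9% in Kat6a-cKO. Both Kat6a-cKO libraries were also higher over all nuclei (4.7% and 5.6% against 7.6% and 8.2%). The same held in CA2-like (25.3% and 14.8% against 28.6% and 27.4%), mossy-like, and subicular and cortical excitatory-like nuclei. The genotypes overlapped in CA3-like, dentate granule-like and inhibitory-like nuclei. No test was made of these shares. By their CPM, 39.9% of single genes also separated the genotypes in CA1-like, 37.6% in CA2-like and 38.5% in mossy-like nuclei. Dentate granule-like nuclei, few of which had 3 or more, numbered 3415 and 3181 in Control against 2985 and 2712 in Kat6a-cKO. The part of this mix of classes in the value over all nuclei was not tested.

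By the likeness of their pattern over 13 classes (Pearson r of log2(CPM + 1), mean of the 2 Control libraries, 12736 genes ranked), the genes most like Htr1f were Snhg11 (0.955) and Chrm3 (0.942), the M3 muscarinic receptor. Those most like Htr4 were Celsr3 (0.952) and Arhgap15 (0.942), and the gene most like Htr7 was Dchs2 (0.945). Htr2a was most like Snhg11 (0.911) and Htr1f (0.910), and Htr2c was most like Herc1 (0.903). Classes share libraries and depth, so these values are descriptions.

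Setting Kat6a-cKO beside Control in every class addresses which receptor genes differ between the genotypes. Kat6a encodes a histone acetyltransferase. Only Kat6a-cKO mice were described as carrying NEX-cre, so loss of Kat6a and the NEX-cre allele of the Neurod6 locus cannot be told apart. Values from here on are CPM after TMM normalisation (normalised CPM), except those called CPM alone, with Control replicates 1 and 2 first. A positive log2 fold change, given with its standard error (SE), means a higher value in Kat6a-cKO. In 11 named classes 56 receptor tests could be made and 4 passed an adjusted p of 0.05 (edgeR quasi-likelihood test, Benjamini-Hochberg over all genes of the class), while the share of all genes called ran from 0.0129% in oligodendrocyte-like to 0.791% in subicular and cortical excitatory-like nuclei. All 4 were higher in Kat6a-cKO: Htr2a in CA1-like nuclei, Htr7 in mossy-like nuclei, and Htr2a and Htr7 in the subicular and cortical excitatory-like class. None of the 10 receptors passed in inhibitory-like neurons, where 4 of 14675 genes were called (background 0.0273%), and DESeq2 also called 0. At so low a share, 0 of 10 does not set the receptors apart from other genes. In edgeR 0 of 10 had an unadjusted p under 0.05 there, a count with no share of all genes beside it.

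The windows before the starts of Htr2a and Htr7, which rose together in 1 class, and of Htr2c are shown to let their composition be compared. They are RefSeq sequences (GRCm38.p6), 5′ to 3′ on the strand of the gene, with bases transcribed in GENCODE M21 left out. Capitals mark matches to 6 short motifs searched on both strands (the E-box as CANNTG, the short CRE as TGACG, the full CRE as TGACGTCA, which contains the short one, the GC box as GGGCGG, the TATA box as TATAAA and the TCF/LEF core as CTTTGA).
Htr2a, chr14:74640624-74640839, plus strand: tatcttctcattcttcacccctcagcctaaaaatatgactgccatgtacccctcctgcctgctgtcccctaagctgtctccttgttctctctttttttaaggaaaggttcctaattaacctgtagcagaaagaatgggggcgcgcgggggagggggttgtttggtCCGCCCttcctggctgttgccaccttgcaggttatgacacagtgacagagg
Htr2c, chrX:146962263-146962512, plus strand: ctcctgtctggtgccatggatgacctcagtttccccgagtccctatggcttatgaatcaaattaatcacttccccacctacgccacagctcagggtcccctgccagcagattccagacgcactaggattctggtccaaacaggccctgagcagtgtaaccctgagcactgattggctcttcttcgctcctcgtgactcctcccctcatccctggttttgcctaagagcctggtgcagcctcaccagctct
Htr7, chr19:36057508-36057610, minus strand: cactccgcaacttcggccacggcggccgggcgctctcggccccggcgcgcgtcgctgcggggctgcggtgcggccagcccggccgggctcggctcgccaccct
The Htr2a window holds 1 match to GGGCGG, present in 32.7% of 32851 RefSeq windows of 250 bases, and the Htr2c window and the 103 bases shown of Htr7 hold none of the 6; the whole 250-base window of Htr7 holds 1 match to TGACG, present in 17.8% of windows. G and C made up 52.8% of the whole 250-base window of Htr2a, 55.6% of that of Htr2c and 82.0% of that of Htr7, against a median of 52.4% over all windows of 250 bases. CANNTG, the E-box letters, occurs in 66.2% of all windows and in none of these 3. A match or its absence is a description of the letters only.

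Htr2a was higher in CA1-like nuclei of Kat6a-cKO. Normalised CPM were 45.2 and 45.8 in Control against 77.1 and 76.9 in Kat6a-cKO, so the groups did not overlap, as for 39.9% of genes in that class. The log2 fold change was 0.76 ± 0.08 (SE; edgeR adjusted p = 0.00442), and Htr2a was 1 of 9 receptors tested that passed, with 0.458% of 15950 genes called in that class. The share of CA1-like nuclei with an Htr2a UMI after thinning was 17.7% and 17.8% in Control against 26.5% and 26.8% in Kat6a-cKO; an exact permutation test with 2 libraries against 2 cannot give a p under 0.3333, and gave that value. The class has 3 clusters, which were also fitted one by one, a choice made after seeing the data. Cluster 6 (led by Lrmp, Hcls1 and Pantr1 among others) had 43.2 and 45.4 against 84.4 and 91.1 normalised CPM (log2 fold change 0.99 ± 0.10; edgeR adjusted p = 0.000316; background 0.672%). Cluster 4 (led by Adgrl2 and Man1a among others) had 46.3 and 49.8 against 82.0 and 69.5 (adjusted p = 0.0220 in edgeR; background 0.507%). In cluster 7 (led by Tenm3, Prlr and Fibcd1 among others), values of 47.0 and 41.1 against 65.7 and 69.5 gave an edgeR adjusted p of 0.0940 (background 0.0320%); it passed under 5 of 9 alternatives in that cluster (no filter, the replicate block and 3 of the 4 left-out libraries; lowest adjusted p 0.000551). With a minimum of 1000 UMIs and new clusters, the CA1-like class grew to 6738 nuclei and the call was lost (log2 fold change 0.65, edgeR adjusted p = 0.120). The class then held a cluster of 2183 nuclei led by Dcn and Pde11a, which are also leading genes of the unnamed cluster 9. It also held a cluster with 35 and 175 nuclei in Control against 3 and 16 in Kat6a-cKO. The part of this change of nuclei in the lost call was not tested.

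Htr2a was also higher in the subicular and cortical excitatory-like class, with 23.4 and 17.7 normalised CPM in Control against 76.0 and 60.6 in Kat6a-cKO. The log2 fold change was 1.72 ± 0.24 (SE; edgeR adjusted p = 0.00168), with 0.791% of 9358 genes called. After thinning, 3.92% and 3.95% of Control nuclei and 13.5% and 13.9% of Kat6a-cKO nuclei had an Htr2a UMI, so the gene was detected in a minority of the class in both genotypes. This class is 1 cluster of 102 and 76 nuclei in Control against 155 and 115 in Kat6a-cKO. Whether a subtype within it changed its share was not tested. Clusters 10, 12, 19 and 23 were nearest to the same class by markers but stayed unnamed, with too few markers raised. Cluster 10 had Htr2a at 37.0 and 39.9 normalised CPM in Control against 32.1 and 40.9 in Kat6a-cKO (log2 fold change -0.07). Cluster 12 had 4.59 and 3.84 against 2.02 and 2.51 (log2 fold change -0.92, edgeR adjusted p = 0.849). In clusters 19 and 23 Htr2a was not tested. At a minimum of 1000 UMIs the edgeR adjusted p was 0.0649 with a log2 fold change of 1.79, and over 12 alternatives the log2 fold change ran from 1.54 to 1.96.

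In CA2-like nuclei, Htr2a values were 38.2 and 24.8 normalised CPM in Control against 56.7 and 65.2 in Kat6a-cKO. The groups did not overlap, as for 37.6% of genes in that class, and the test was not passed (log2 fold change 0.99 ± 0.19; edgeR adjusted p = 0.161; 0.0187% of genes called). It passed in edgeR with no filter on low counts, with the replicate block and when replicate 1 of either genotype was left out, and the adjusted p ranged from 7.80e-06 to 0.468 over its 12 alternatives. Cluster 16, 476 nuclei with 6 of 8 CA1 markers raised and led by Mlip, Pcsk1, Nr4a3 and Nr4a2 among others, had 26.7 and 34.7 against 94.97 and 83.9 normalised CPM; edgeR gave an adjusted p of 0.154, with 0.0103% of genes called. That difference passed in DESeq2, in edgeR with no filter or with the replicate block, and when replicate 2 of either genotype was left out. Mossy-like nuclei had 52.3 and 45.3 against 71.1 and 73.8 (adjusted p = 0.283, edgeR).

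CA3-like nuclei had 13.5 and 13.4 normalised CPM in Control against 15.1 and 15.3 in Kat6a-cKO (log2 fold change 0.17 ± 0.12; edgeR adjusted p = 0.803), a small difference in groups that did not overlap, as for 37.3% of genes there. Dentate granule-like nuclei had 2.13 and 2.09 against 2.02 and 1.91. In an edgeR test of the difference between classes, blocked by library, the log2 fold change was lower by 0.60 ± 0.10 (SE) in CA3-like than in CA1-like nuclei (adjusted p = 0.0139; 0.425% of 16246 genes called) and lower by 0.84 ± 0.16 in dentate granule-like than in CA1-like nuclei (adjusted p = 0.0228; 0.565% of 17520 genes called). The second difference was no longer called in edgeR when Kat6a-cKO replicate 1 (adjusted p = 0.113) or replicate 2 (adjusted p = 0.336) was left out, although its size stayed at -0.89 and -0.79. No other receptor differed between these classes past the threshold, and between CA3-like and dentate granule-like nuclei none did (0.103% of genes called). The difference of Htr2c between CA3-like and CA1-like nuclei was 0.45 ± 0.16 (edgeR adjusted p = 0.452). It was called with no filter (0.49) and when replicate 2 of either genotype was left out (0.74 for Control, 0.79 for Kat6a-cKO), and it was not called when replicate 1 was (0.17 and 0.20). Cluster 9, an unnamed excitatory cluster led by Dcn, Ndrg1 and Pde11a with 4 of 8 CA1 markers raised, had 20.4 and 23.8 in Control against 10.2 and 19.7 in Kat6a-cKO (log2 fold change -0.62; edgeR adjusted p = 0.516), and Htr2a was called lower there when Kat6a-cKO replicate 2 was left out (log2 fold change over the alternatives from -1.10 to -0.17; adjusted p from 0.000865 to 0.976).

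**Figure D3:**
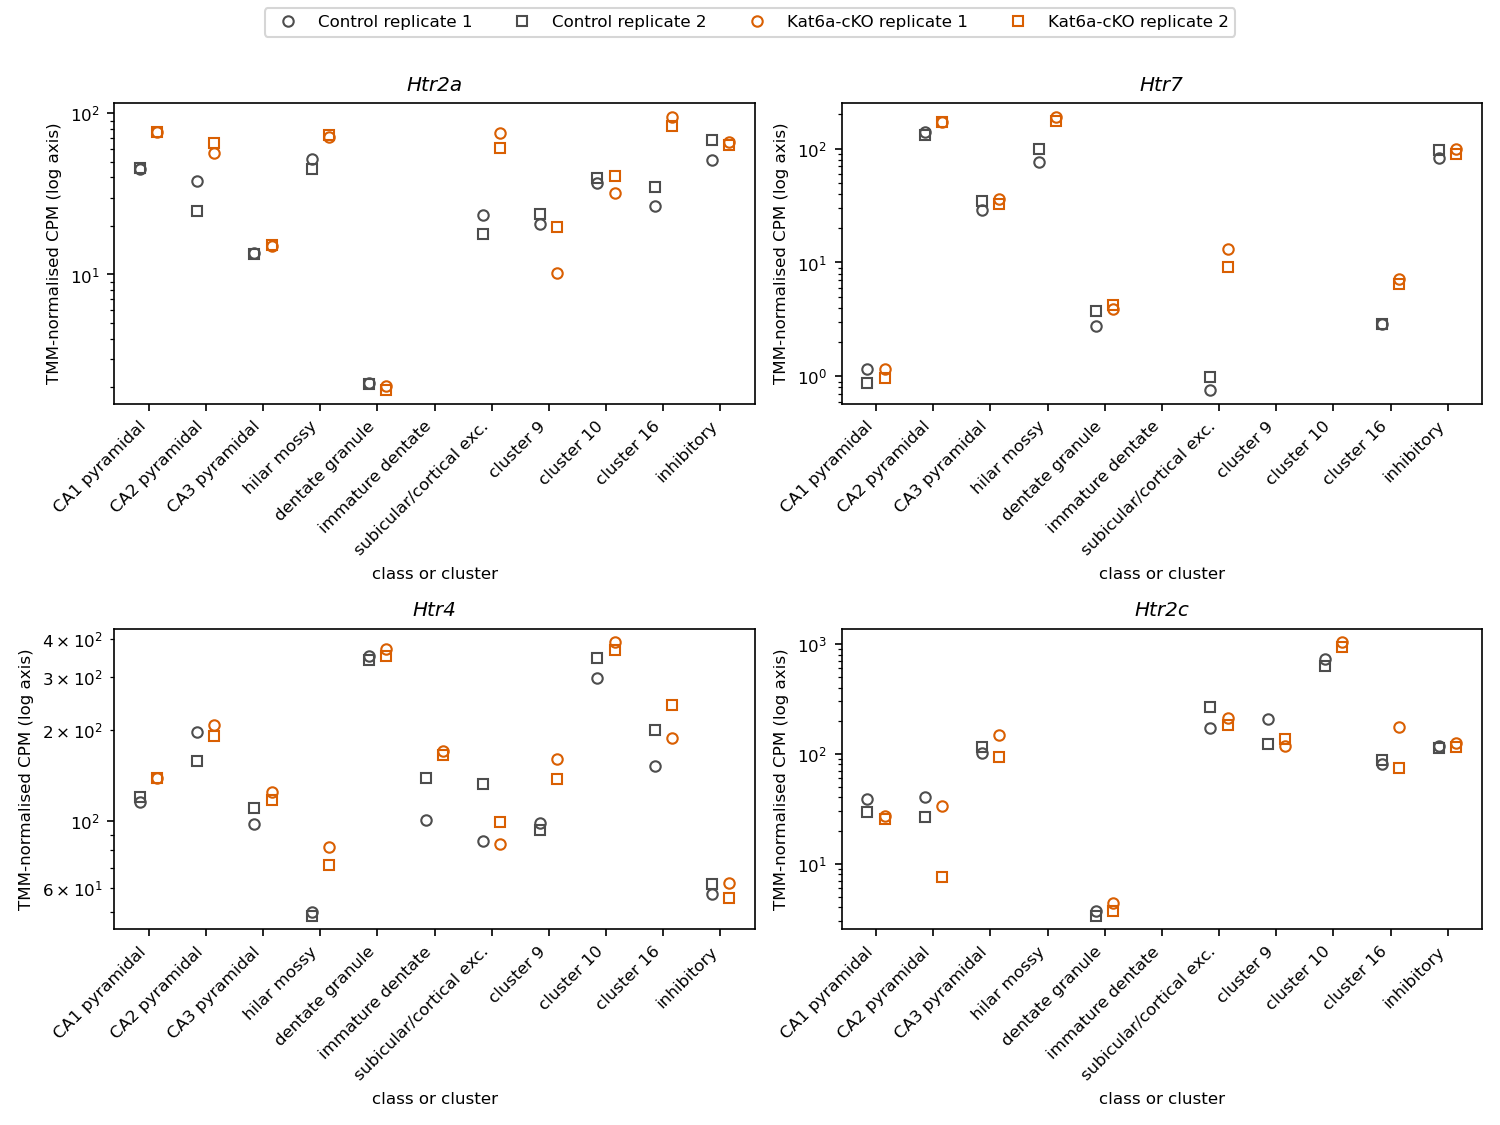
Normalised CPM (log axis) of Htr2a, Htr7, Htr4 and Htr2c in 11 classes and clusters, 1 point per library, grey for Control and orange for Kat6a-cKO, circles for replicate 1 and squares for replicate 2; a missing column was below the filter on low counts. For Htr2a in CA1-like nuclei the Control points lie at 45.2 and 45.8 and the Kat6a-cKO points at 77.1 and 76.9, while the groups overlap in inhibitory-like nuclei (51.0 and 68.2 against 66.6 and 63.7).

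Htr7 was higher in mossy-like nuclei of Kat6a-cKO. Normalised CPM were 76.8 and 99.2 in Control against 189 and 174 in Kat6a-cKO (log2 fold change 1.02 ± 0.16, SE; edgeR adjusted p = 0.00483), 1 of 4 receptors tested, with 0.714% of 8958 genes called. After thinning, 30.0% and 39.2% of Control nuclei and 52.0% and 52.9% of Kat6a-cKO nuclei had an Htr7 UMI. The class was small, with 30 and 51 nuclei in Control against 50 and 51 in Kat6a-cKO. Inhibitory neurons also contain Htr7, and the summed inhibitory markers were 21.0 and 29.7 CPM in Control against 70.9 and 28.6 in Kat6a-cKO mossy-like nuclei, higher in 1 Kat6a-cKO library; their part in the result was not tested.

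In the subicular and cortical excitatory-like class Htr7 was higher in Kat6a-cKO, at low counts. It had 1 UMI in each Control library and 28 and 14 in Kat6a-cKO, or 0.754 and 0.984 against 13.2 and 9.13 normalised CPM (edgeR adjusted p = 0.0150). Summed over the libraries of a group, the ratio was 13.0 with a 95% exact counting interval of 3.39 to 111, which covers counting error only. The summed inhibitory markers overlapped between genotypes (37.8 and 29.0 CPM in Control, 30.6 and 27.0 in Kat6a-cKO). The call was lost without either Control library, without Kat6a-cKO replicate 1, with doublets kept and at a minimum of 1000 UMIs (edgeR adjusted p from 0.0661 to 0.450), while the log2 fold change stayed between 3.10 and 3.83 over 11 alternatives (3.61 with none).

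Elsewhere Htr7 did not pass. CA2-like nuclei, where its mean over both genotypes was highest among named classes, had 140 and 131 normalised CPM in Control against 171 and 172 in Kat6a-cKO (log2 fold change 0.34 ± 0.10, edgeR adjusted p = 0.467). CA3-like nuclei had 28.8 and 34.4 against 36.3 and 32.4, and inhibitory-like nuclei had 82.3 and 96.5 against 99.3 and 89.5.

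Htr2c was higher in Kat6a-cKO in cluster 10, which held the largest share of its UMIs. Normalised CPM were 735 and 629 in Control against 1034 and 944 in Kat6a-cKO (log2 fold change 0.54 ± 0.09, SE; edgeR adjusted p = 0.00108), 1 of 5 receptors tested, with 1.49% of 11062 genes called. The thinned share of nuclei with an Htr2c UMI was 54.7% and 52.6% in Control against 60.2% and 57.1% in Kat6a-cKO. The summed inhibitory markers of cluster 10 were 37.4 and 25.8 CPM in Control against 76.2 and 26.0 in Kat6a-cKO, higher in 1 library, and their part in the result was not tested. Cluster 10 itself held 139 and 133 nuclei of Control and 241 and 261 of Kat6a-cKO. The clusters outside the named classes were fitted after seeing the data. Over all nuclei together Htr2c had 66.1 and 63.0 against 94.3 and 79.8 normalised CPM (edgeR adjusted p = 0.152), and it was called in DESeq2, with the replicate block and without Kat6a-cKO replicate 2 (lowest adjusted p 0.00276); the share of nuclei in cluster 10 also differed between the libraries, and its part in this value was not tested. In all bulk sums of nuclei, fewer nuclei with a receptor and less RNA per nucleus cannot be told apart.

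In CA1-like nuclei Htr2c had the opposite sign: 38.5 and 29.4 normalised CPM in Control against 27.0 and 25.5 in Kat6a-cKO (log2 fold change -0.37 ± 0.13; edgeR adjusted p = 0.345). Over 12 alternatives the log2 fold change ran from -0.56 to -0.16, and it passed in edgeR with no filter on low counts and without Control replicate 2 (adjusted p from 0.00199 to 0.869). Cluster 14 had 589 and 518 against 698 and 511, which overlapped, and inhibitory-like nuclei had 116 and 114 against 126 and 116.

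Htr4 passed in 1 cluster, the unnamed cluster 9. In cluster 9 it had 99.0 and 93.2 normalised CPM in Control against 161 and 138 in Kat6a-cKO (log2 fold change 0.64 ± 0.10, SE; edgeR adjusted p = 0.0156), and Htr1f had 64.6 and 59.2 against 89.8 and 101 in the same cluster (0.62 ± 0.11; edgeR adjusted p = 0.0329, and 0.0593 with the replicate block); these were 2 of 7 receptors tested, with 0.124% of 12101 genes called. CA1-like nuclei had 116 and 120 against 139 and 139 (edgeR adjusted p = 0.246), CA3-like nuclei 97.8 and 110 against 125 and 118 (adjusted p = 0.520 in edgeR), and mossy-like nuclei 50.2 and 48.6 against 81.9 and 71.5 (adjusted p = 0.218 in edgeR). The groups did not overlap in these 3 classes, but neither did they for 39.9%, 37.3% and 38.5% of all genes there. Dentate granule-like nuclei, where Htr4 was highest, had 353 and 341 against 372 and 352, and inhibitory-like nuclei 57.2 and 62.0 against 62.3 and 55.6. All classes come from the same 4 libraries and are not independent of each other.

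**Figure D4:**
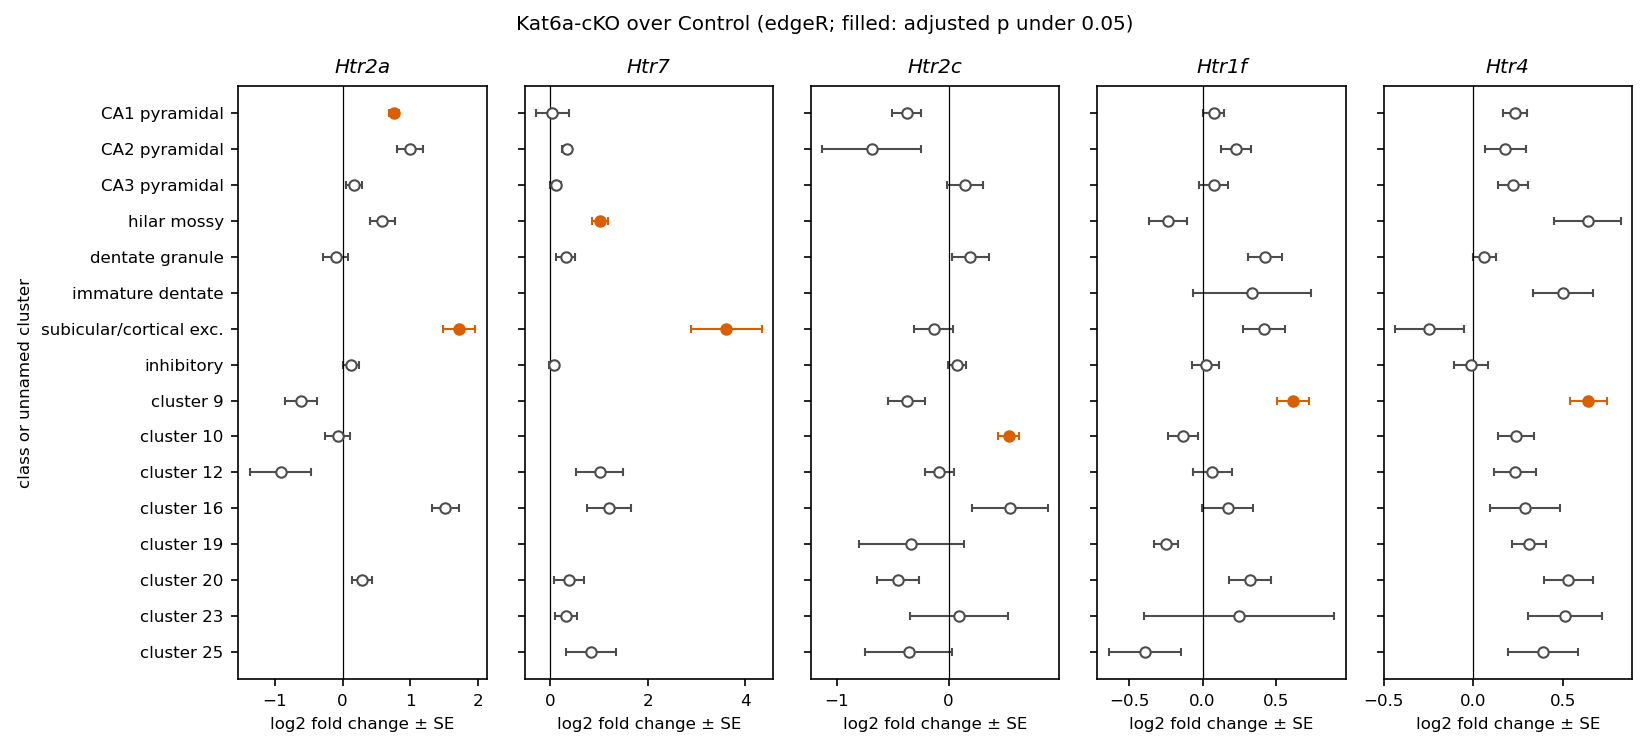
Log2 fold change of Kat6a-cKO over Control with its SE (edgeR) for 5 receptor genes in named classes and unnamed excitatory clusters; filled orange points passed an adjusted p of 0.05. Htr2a is filled in CA1-like nuclei (0.76) and the subicular and cortical excitatory-like class (1.72), Htr7 in the latter and in mossy-like nuclei (1.02), Htr2c in cluster 10 (0.54), and Htr1f and Htr4 in cluster 9.

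Htr1f did not pass in any named class. The subicular and cortical excitatory-like class, its highest named class, had 341 and 287 normalised CPM in Control against 452 and 389 in Kat6a-cKO (edgeR adjusted p = 0.237). Mossy-like nuclei had the opposite sign, with 194 and 192 against 164 and 164 (edgeR adjusted p = 0.654). CA1-like nuclei had 234 and 252 normalised CPM in Control against 251 and 262 in Kat6a-cKO, and dentate granule-like nuclei, at a low level, had 10.3 and 10.6 against 15.1 and 13.0 (edgeR adjusted p = 0.186). The scarce receptors did not pass either: in CA1-like nuclei, Htr1a had 6.56 and 5.87 against 4.53 and 5.00 (edgeR adjusted p = 0.521), and Htr1b had 5.66 and 5.39 against 4.76 and 5.04 (edgeR adjusted p = 0.817). Htr3a could be tested in inhibitory-like nuclei, in their Cck-like subtype and over all nuclei pooled, and there its normalised CPM overlapped between genotypes. After thinning, a mean of 1.41% of inhibitory-like nuclei in Control and 0.68% in Kat6a-cKO had an Htr3a UMI. The exact permutation test gave p = 0.3333, the smallest it can give. Over the Cck-like, Lamp5-like, Pvalb-like, Sst-like and Vip-like subtypes, 0 of 24 receptor tests were passed in edgeR (backgrounds of 0%, 0.0199%, 0.0125%, 0% and 0%). There were 2 at an unadjusted p under 0.05, a count with no share of all genes beside it. With 1 Control library left out, 1 receptor each was called in Cck-like and Sst-like (without replicate 2) and in Vip-like nuclei (without replicate 1). In Sst-like nuclei this was Htr4, whose log2 fold change of 0.69 ran from 0.154 to 1.62 over its alternatives.

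In CA3-like nuclei 0 of 8 receptors passed in edgeR and in DESeq2 (background 0.0131%). Dentate granule-like nuclei gave 0 of 9 (background 0.404%) and CA2-like nuclei 0 of 6 (background 0.0187%), with 0 in DESeq2 in both. At an unadjusted p under 0.05 in edgeR there were 1, 1 and 3 receptors in these classes. Every background is the share of genes at an adjusted p under 0.05, so it cannot be set beside unadjusted counts. Immature dentate-like nuclei gave 0 of 2 (background 0.161%), with 1 at an unadjusted p under 0.05. Oligodendrocyte-like nuclei and oligodendrocyte precursor-like nuclei (OPC) had 1 receptor each to test, Htr4 and Htr1f, and neither passed nor had an unadjusted p under 0.05 (background 0.0129% and 0.138%); in astrocyte-like nuclei no receptor had enough counts to be tested (background 0.0312%).

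A lower value was called in a glial class that could be fitted at a minimum of 1000 UMIs only, microglia-like nuclei (399 to 628 nuclei per library). Htr4 had 39.0 and 33.8 CPM in Control against 11.5 and 8.98 in Kat6a-cKO (log2 fold change -1.75 ± 0.32, SE; edgeR adjusted p = 0.00455), 1 of 2 receptors tested, with 1.90% of 10468 genes called, 192 of them lower and 7 higher in Kat6a-cKO. Of 34 listed pathway genes 6 were called, all lower: Adarb2, Kcnj3, Rgs7, Adcy1, Kcnj6 and Plcb1. The summed markers of dentate granule neurons, where Htr4 is highest, were also lower in these nuclei, at 1775 and 2144 CPM in Control against 1504 and 1460 in Kat6a-cKO, as were the UMIs per nucleus (2888 and 2870 against 2351 and 2232). The summed oligodendrocyte markers were slightly lower too (364.2 and 351.4 against 349.5 and 303.1 CPM). The summed inhibitory markers were not lower (119.9 and 121.3 against 148.3 and 124.6 CPM), nor did those of astrocytes separate the genotypes (858 and 694 against 931 and 833 CPM). In droplets without a nucleus, Htr4 had 50.7 and 46.4 CPM in Control against 68.7 and 64.1 in Kat6a-cKO. Those droplets held a median of 513 and 548 UMIs in Control against 413 and 389 in Kat6a-cKO. The part of free RNA in the Htr4 values of microglia-like nuclei was not estimated. The part of these differences in the result was not tested.

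Over all nuclei pooled, 0 of 10 passed in edgeR (background 0.0641% at an adjusted p under 0.05) and DESeq2 called 2, Htr2a and Htr2c. In edgeR 3 had an unadjusted p under 0.05, a count with no share of all genes beside it. In the 13 single clusters 5 of 86 receptor tests passed: Htr2a in clusters 4 and 6, Htr1f and Htr4 in cluster 9 and Htr2c in cluster 10. No receptor passed in clusters 7 and 16, given above, or in clusters 3, 12, 14, 19, 20, 23 and 25, where the background, from cluster 3 on, was 0.0342%, 0.0805%, 0.0806%, 1.17%, 0.117%, 0.0768% and 0.0110%. Under alternatives, Htr4 was called higher in cluster 3 (no filter, or without Control replicate 1; lowest edgeR adjusted p 0.0256), in cluster 20 (no filter, or without Kat6a-cKO replicate 2; lowest adjusted p 0.00385 in edgeR), and in cluster 6 (replicate block; adjusted p 0.00651 in edgeR). Without Control replicate 2, Htr2c was called lower in clusters 6, 7, 9 and 20 (edgeR adjusted p 0.00143, 0.0305, 1.23e-05 and 0.00774), and in cluster 9 also without Kat6a-cKO replicate 2 (edgeR adjusted p = 0.0256); with all libraries Htr2c in cluster 9 had 206 and 123 against 118 and 136 normalised CPM (log2 fold change -0.37, edgeR adjusted p = 0.607).

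Of 47 listed genes for further receptors, serotonin synthesis and transport, G proteins, adenylyl cyclases, phospholipase C, GIRK channels, receptor partners and RNA editing enzymes, 22 to 40 could be tested per named class, and 0 of 356 tests were passed in edgeR. DESeq2 called 1, in immature dentate-like nuclei. The smallest p-values in CA1-like nuclei were those of Arrb2, a β-arrestin (13.1 and 12.9 against 10.2 and 9.68 normalised CPM; edgeR adjusted p = 0.286), and Gnal, a Gs-like α subunit (16.4 and 16.5 against 26.7 and 18.7; edgeR adjusted p = 0.344). In mossy-like nuclei they were those of Kcnj3, a GIRK channel subunit (271 and 233 against 344 and 355; edgeR adjusted p = 0.135), and Slc18a2, the vesicular monoamine transporter (19.2 and 17.7 against 6.96 and 7.07; edgeR adjusted p = 0.203). In the subicular and cortical excitatory-like class they were those of Kcnj6, another GIRK subunit (361 and 282 against 484 and 473; edgeR adjusted p = 0.0705), and Adarb2 (95.7 and 87.6 against 129 and 129; edgeR adjusted p = 0.201). In the unnamed clusters, 3 of 34 listed genes passed in cluster 10 (background 1.49%; DESeq2 called 2), and none in the other 12 single clusters. Plcb1, the phospholipase C acting downstream of Gq, had 613 and 567 against 810 and 822 normalised CPM (edgeR adjusted p = 0.00285), and Adcy8, an adenylyl cyclase, had 78.0 and 62.2 against 111 and 101 (edgeR adjusted p = 0.0191). Plcb4, another phospholipase C, was lower, with 390 and 418 against 245 and 234 (edgeR adjusted p = 2.38e-05).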

How the data were processed

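The files hold raw UMI counts per gene and barcode for 4 single-nucleus libraries (10x Chromium) of adult mouse hippocampus, as the authors deposited them without a cell filter. Per the submitters' processing notes, mm10 and Seurat 4.0.1 were used; the aligner, the annotation and the strand of counting are not given in the sources used here. Total counts per library were 171323466 to 186897245 UMIs. Barcodes with at least 5000 UMIs were kept, Scrublet doublets (243 to 298 per library) were left out, and the rest were clustered with scanpy 1.11.5 (2000 variable genes without the receptors and other serotonin genes, 30 principal components, Leiden resolution 1). Clusters were named from marker lists when 3 or more markers, and 50% or more of the list, were raised at least 2-fold over the other nuclei, given 20 or more nuclei. Clusters with more markers of another class among their 10 leading genes, with raised markers of 2 lineages, or with glial markers but UMI counts typically over 50% of the library median, stayed unnamed. Counts were summed per library and class and tested with edgeR 4.0.16 (TMM, filterByExpr, quasi-likelihood test, Benjamini-Hochberg over all genes of the class) where every library held at least 30 nuclei. Shares of nuclei were compared after thinning each nucleus to 5000 UMIs, with an exact two-sided permutation test. Intervals cover counting error only. Gene positions are from GENCODE M21 (GRCm38), and promoters, matched for 8 of 10 receptors, from RefSeq (GRCm38.p6). All 10 receptors are named. The members and gene lists were chosen with earlier results of these data known. Alternatives were DESeq2 1.42.0, its size factors in edgeR, no filter, a replicate block, each library left out, other UMI minimums, doublets kept and Leiden resolution 2. The edgeR step was also run on simulated counts, whose spread between libraries was estimated from these same libraries. That run does not show how calls behave in the real data.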

Additional observations from a re-analysis of the deposited data

Results flagged for a closer look

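Both results below are differences between cell classes in the change of Htr2a from Control to Kat6a-cKO, from an edgeR test of the interaction, blocked by library. The log2 fold change of Htr2a was lower in CA3-like than in CA1-like nuclei, with a difference of -0.60 (edgeR adjusted p = 0.0139), and over 5 alternatives the adjusted p was at most 0.0395. The log2 fold change was lower in dentate granule-like than in CA1-like nuclei, with a difference of -0.84 (edgeR adjusted p = 0.0228), and it was not called when either Kat6a-cKO library was left out, at differences of -0.89 and -0.79. Htr2a was low in dentate granule-like nuclei, at a mean of 2.04 CPM.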

How the results depend on the processing

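The call of Htr7 in mossy-like nuclei held under 12 of 12 alternatives. That of Htr2a in CA1-like nuclei and in the subicular and cortical excitatory-like class held under 11 of 12 each, the exception being the minimum of 1000 UMIs. At that minimum the nuclei were clustered and named anew, so the set of nuclei in a class also changed. With that minimum, 0 receptors were called in CA1-like nuclei and 0 in the subicular and cortical excitatory-like class, while Htr4 was called lower in microglia-like nuclei. With no filter on low counts, 2 receptors were called in CA1-like and 1 in CA2-like nuclei, and pathway genes called numbered 1 in CA1-like, 1 in mossy-like, 2 in subicular and cortical excitatory-like and 2 in immature dentate-like nuclei. DESeq2 called 1 receptor in the subicular and cortical excitatory-like class (Htr7 had no adjusted p there), 2 over all nuclei and 1 pathway gene in immature dentate-like nuclei, where its size factors in edgeR also gave 1. With doublets kept, 1 receptor was called in the subicular and cortical excitatory-like class. The labels do not say that replicate numbers pair the libraries, and with 2 pairs the numbers were not taken as a pairing; deviations of same-numbered libraries correlated at 0.305 in CA1-like nuclei and 0.442 over all nuclei. With the replicate block, 2 receptors were called in CA2-like nuclei, 2 over all nuclei and 1 pathway gene in astrocyte-like nuclei, and Htr1f in cluster 9 was no longer called. The cause of these differences was not tested.

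With 1 library left out, an arm holds 1 library that is assumed to vary like the others. Receptors called then ranged from 1 to 2 in CA1-like, 0 to 2 in CA2-like, 1 to 2 in subicular and cortical excitatory-like, 0 to 1 in immature dentate-like and 0 to 2 in all nuclei. Pathway genes called ranged from 0 to 2 in CA1-like, 0 to 1 in CA3-like, 0 to 1 in mossy-like, 0 to 1 in subicular and cortical excitatory-like and 0 to 2 in immature dentate-like nuclei. The log2 fold change of Htr2c in cluster 9 (-0.37 with all) ranged from -0.69 (without Control replicate 2) to 0.0523 (without Control replicate 1), and was called at -0.69 and, without Kat6a-cKO replicate 2, at -0.47. For differences between classes, receptors called ranged from 1 to 2 (CA3 less CA1), 0 to 3 (dentate granule less CA1) and 0 to 2 (CA3 less dentate granule), and with no filter 2 were called in each of the first 2. The added calls were those of Htr2c (CA3 less CA1), Htr1f, Htr2c and Htr4 (dentate granule less CA1) and Htr1f and Htr4 (CA3 less dentate granule).

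The level of Htr1b in CA1-like nuclei was 4.62 CPM at a minimum of 1000 UMIs, that of Htr4 in dentate granule-like nuclei 338 at Leiden resolution 2, and that of Htr6 in astrocyte-like nuclei 24.5 at a minimum of 8000 UMIs and 6.30 at 1000. Without thinning, 21 of 110 differences in shares of nuclei (Kat6a-cKO less Control, percentage points) changed sign, the widest from 10.2 to -0.686 for Htr4, 2.0 to -8.29 for Htr5a and 3.94 to -5.63 for Htr1f in mossy-like and from 4.02 to -0.508 for Htr1f in CA3-like nuclei. Others became -1.30 for Htr1b in CA1-like, -1.09 for Htr2a and -2.11 for Htr5a in inhibitory-like, -0.398 for Htr4 in dentate granule-like and -0.412 for Htr7 in CA2-like nuclei. With 1 library left out they ranged from -0.257 to 0.373 (Htr1b), -3.18 to 4.52 (Htr2a), -0.498 to 1.61 (Htr5a) and -0.444 to 4.54 (Htr7), from -6.49 to 17.3 for Htr2c in the subicular and cortical excitatory-like class and from -7.12 to 0.805 for Htr6 in astrocyte-like nuclei.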
